A study of Saccharomyces cerevisiae with 222 samples.

Results

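S-phase EdU incorporation was compared between CDK bypass cells and control cells through the positions of the peaks that the authors called in each sample. A list for each sample gave the summit of every peak, the single base where the pulldown of EdU-labeled DNA was highest within a peak called against total DNA. The members were the 1524 nuclear summits of 4 lists, out of 2235 nuclear summits in the 6 lists analysed here, and they were matched by position within 1, 2.5 and 5 kb. CDK bypass cells were represented by 387 and 427 summits (407 ± 28.3, SD, n = 2) and control cells by 318 and 392 summits (355 ± 52.3, SD, n = 2).

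CDK bypass cells (strain YKR1445) expressed Dpb11 and the phosphorylation-mimicking Sld2-T84D from the galactose-inducible pGAL1-10 promoter. Control cells (strain E3087) carried the background that allows EdU incorporation without these constructs. Each group is a strain of W303 background, and both were arrested in G1 with α-factor, given 2% galactose for 3 h and released for 90 min into medium with 100 µM EdU and 200 mM hydroxyurea (HU). The galactose, the EdU and the HU were thus common to both groups, and only the CDK bypass cells could replicate in G1 before this labeling. The sources used here do not say whether replicates came from separate cultures, so the p-values measure the spread between these samples only. The question was whether the sites of DNA synthesis in S phase differed after G1 replication.

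Budding yeast origins of replication lie in short ARS elements, to which the origin recognition complex binds through a T-rich consensus. CDK phosphorylates Sld2 and Sld3, which then bind Dpb11 and allow the loaded helicase to be activated. HU depletes deoxynucleotides, so forks that leave early origins slow soon after firing and the checkpoint kinase Rad53 holds back later origins. EdU labeled under these conditions therefore marks the surroundings of early origins.

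At 12 loci a summit was called in both lists of 1 group and in neither list of the other, at some of them with low scores. The origins of 6 of these loci are shown here by the stretch around their match to the 11-letter ARS consensus. ARS306, at a locus near the top of all 4 lists, is given for comparison. The letters were read from the R64 reference (the plus strand, 5′ to 3′), and capitals mark the consensus match.

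ARS1020, CDK bypass only, chr10:654512-654572: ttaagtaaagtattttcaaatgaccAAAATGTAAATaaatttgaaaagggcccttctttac

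ARS1307.5, CDK bypass only, chr13:159024-159084: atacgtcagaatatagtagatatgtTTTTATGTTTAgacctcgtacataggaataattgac

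ARS409, CDK bypass only, chr4:212555-212615: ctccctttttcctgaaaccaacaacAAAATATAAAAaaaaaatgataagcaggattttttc

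ARS912, CDK bypass only, chr9:175151-175211: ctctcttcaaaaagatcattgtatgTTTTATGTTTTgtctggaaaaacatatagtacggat

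ARS300, control only, chr3:1025-1085: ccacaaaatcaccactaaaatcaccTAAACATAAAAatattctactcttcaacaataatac

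ARS1232, control only, chr12:1007218-1007278: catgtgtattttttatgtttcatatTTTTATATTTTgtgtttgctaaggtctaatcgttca

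ARS306, called in all 4 lists, chr3:74496-74556: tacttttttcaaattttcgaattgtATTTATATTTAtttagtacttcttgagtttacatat

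The match lies on the plus strand at ARS1307.5, ARS912, ARS1232 and ARS306 and on the minus strand at ARS1020, ARS409 and ARS300. The other 3 ARS features at such loci (ARS412 in CDK bypass, ARS404 and ARS1333 in control) held no exact match in the 250 bp around their middle. A match of either strand was present in 33.8% of the 352 annotated ARS windows of this length and in 1.57% of 48277 consecutive windows of the genome. The matches are given as a description of the sites. The control summits beside ARS300 lay in a telomere feature and not in the ARS.

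Most sites were common to both groups. A summit was called shared if the nearest summit of either list of the other group lay within 1 kb, shifted if it lay over 1 and up to 5 kb away, and unmatched if it was farther. In CDK bypass 291 and 333 summits were shared (75.2% and 78.0%), against 269 and 328 in control (84.6% and 83.7%). The nearest summit of the other group lay at a median of 99 and 69 bp from the CDK bypass summits and at 31.5 and 84 bp from those of control. Over the 4 pairs of lists between the groups, 69.8% ± 4.17 of summits had a partner within 1 kb, 83.9% ± 2.38 within 2.5 kb and 90.4% ± 1.1 within 5 kb (SD over pairs, which share lists). Between the replicates of CDK bypass the shares were 76.7%, 88.8% and 93.9%, and between those of control 73.2%, 90.1% and 96.6%. Within 1 kb, CDK bypass replicate 2 and control replicate 2 matched at 74.7%, above the control replicates. Part of the mismatch thus also lay between replicates. Windows of 2.5 kb to both sides of the summits of a list cover 11.3% to 13.3% of the genome.

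**Figure D1:**
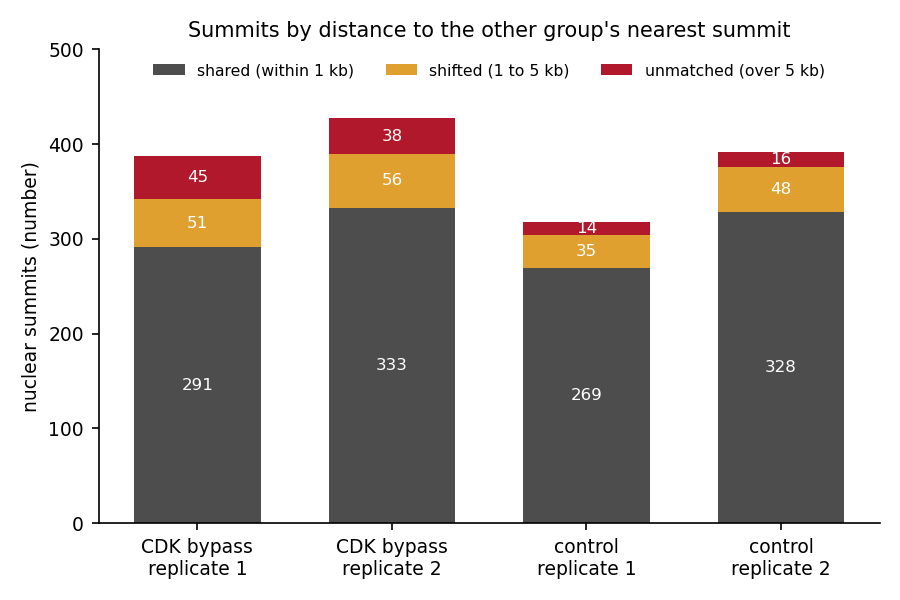
Bars show the number of nuclear summits in each of the 4 lists (y axis), divided by the distance to the nearest summit of either list of the other group. Unmatched summits number 45 and 38 in CDK bypass and 14 and 16 in control, while shifted summits number 51 and 56 in CDK bypass and 35 and 48 in control.

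CDK bypass lists held more unmatched summits. They were 45 and 38 in CDK bypass (11.6% and 8.90%, 10.3% ± 1.93) and 14 and 16 in control (4.40% and 4.08%, 4.24% ± 0.227). The lists of the groups did not overlap and the difference was 6.02 percentage points (p = 0.333, exact two-sided permutation test, adjusted p = 0.667 over 7 comparisons). With 2 lists against 2 there are 6 assignments and p cannot fall below 0.333, so no comparison here can pass 0.05. The difference was 1.26 points, with overlapping lists, when each list was reduced to its 318 best summits, and 2.79 to 8.17 points when each sample was left out in turn, with the lowest value without CDK bypass replicate 1. Shifted summits were 13.2% and 13.1% in CDK bypass and 11.01% and 12.2% in control, a difference of 1.52 points whose sign changed under several alternatives.

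Unmatched summits ranked low in their lists. Each score, the −log10 of the q-value, was converted to its percentile within its own list, in which 100 is the highest, because scores depend on depth and cannot be compared directly between lists. Their median percentile was 20.03 and 18.3 in CDK bypass and 18.8 and 28.8 in control, whereas shared summits had medians of 59.0 and 57.6 in CDK bypass and 54.4 and 52.9 in control. Of the unmatched summits, 26 and 27 in CDK bypass and 10 and 11 in control had a summit within 2.5 kb in the other replicate of their own group. An ARS lay within 2.5 kb of 18 and 17 unmatched CDK bypass summits (40% and 44.7%), against 11 and 11 unmatched control summits (78.6% and 68.8%). Merged within 2.5 kb, the unmatched summits formed 47 sites in CDK bypass, 21 of them present in both replicates, and 16 sites in control, 8 of them present in both.

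The lists were next joined into loci by merging windows of 5 kb to both sides of each summit. This gave 219 loci, of which 191 held a summit in all 4 lists (87.2%). In both CDK bypass lists and no control list 6 loci were called (2.74%), and in both control lists and no CDK bypass list 6 were called (2.74%). The balance depended on the window, with 17 loci of CDK bypass and 7 of control at 2.5 kb and 29 and 11 at 1 kb. It was 3 and 5 with lists of equal length. With a single list left for CDK bypass, 10 loci of CDK bypass and 7 of control were called without replicate 1, and 11 and 7 without replicate 2. The other 16 loci were called in 1 list (11), in 3 lists (3) or in 1 list of each group (2). An absent summit is an absent call, and the depth of each list is unknown, so absence of synthesis at these loci was not shown.

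Among the 6 loci of CDK bypass, the highest ranked was at ARS1020 (chr10:654375-654614), between YJR124C and ENT3, which encodes an epsin-like adaptor of vesicle traffic. Its summits lay at position 654058 in replicate 1 and 655421 in replicate 2, at percentiles 46.8 and 50.6. The nearest control summits were 28860 and 28866 bp from the ARS. The summits of the replicates fell on opposite sides of the consensus match, 484 bp below and 879 bp above it.

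The locus with the most summits of the 6 was ARS1307.5 (chr13:158887-159277), which overlaps the end of HUG1 and lies next to SML1. SML1 encodes the inhibitor of ribonucleotide reductase that is degraded when the checkpoint is active, and HUG1 a small protein induced by HU that also binds this enzyme. Replicate 1 had summits at 158379, 159436 and 160146 and replicate 2 at 158425, 159453 and 160524. The highest of the 3 lay in SML1 in both replicates, at percentiles 40.2 and 42.9 and 17 bp apart. The nearest control summits lay 21133 and 21098 bp from the ARS.

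ARS409 (chr4:212519-212618), between SCM3, the chaperone of the centromeric histone, and RGT2, a glucose sensor, had a summit at 213069 and at 213029 in CDK bypass (percentiles 30.5 and 23.8). The nearest control summits were 87430 and 87398 bp away. The CDK/DDK bypass lists, from cells that additionally expressed Dbf4, also had summits here, 1 in replicate 1 and 3 in replicate 2, the closest of them within the ARS.

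The remaining loci of CDK bypass had low scores. ARS412 (chr4:316771-317230), which lies between the peroxisomal malate dehydrogenase gene MDH3 and the vacuolar tethering gene VAM6 and overlaps VAM6, had summits at 316496 and 317363 in replicate 1 and at 315925 in replicate 2, with highest percentiles of 6.33 and 12.6. ARS912 (chr9:175038-175358), which overlaps the edge of XBP1, the gene of a stress-induced repressor, had summits at 175067 and 175592 (percentiles 4.52 and 8.43). The last locus held no ARS, and its summits at 75912 and 76332 on chromosome 12 fell in YLL032C (percentiles 7.11 and 3.98).

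Of the 6 control loci, 4 lay within 30 kb of a chromosome end. Neither CDK bypass list had a summit at the right end of chromosome 14, where control summits lay at 784190 and 784192, in the terminal telomere feature (percentiles 53.8 and 50.5). None was called at the left end of chromosome 3 beside ARS300 (chr3:989-1068) either, where control summits lay at 215 and 213 (percentiles 48.4 and 38.8). These control summits also lay in a telomere feature, 0.774 kb from the ARS. The maltose permease gene MAL31 near the right end of chromosome 2 had no CDK bypass summit and control summits at 802881 and 802875 (percentiles 44.3 and 56.0). ARS1333 (chr13:917896-918366) had no CDK bypass summit and control summits at 916727 and 916738, between the iron transporter gene FET4 and YMR320W (percentiles 17.5 and 15.3). The control summits of each of these 4 loci were at most 11 bp apart.

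The other 2 control loci were internal. ARS404 (chr4:46185-46237) lies beside HO, the endonuclease gene of mating-type switching, and control summits fell in HO at 46570 and 47970 in replicate 1 and at 47238 in replicate 2 (highest percentiles 30.7 and 26.8). The nearest CDK bypass summits were 76006 and 76013 bp away. ARS1232 (chr12:1007186-1007475), between TSR2 and ECM30 and overlapping ECM30, had control summits at 1006463 and 1008744 in replicate 1 and at 1006457 and 1007770 in replicate 2 (highest percentiles 22.5 and 27.9). CDK bypass summits came no nearer to it than 30671 and 29107 bp. Whether any of these gains and losses follow differences in sequence between the strains and the reference was not tested.

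**Figure D2:**
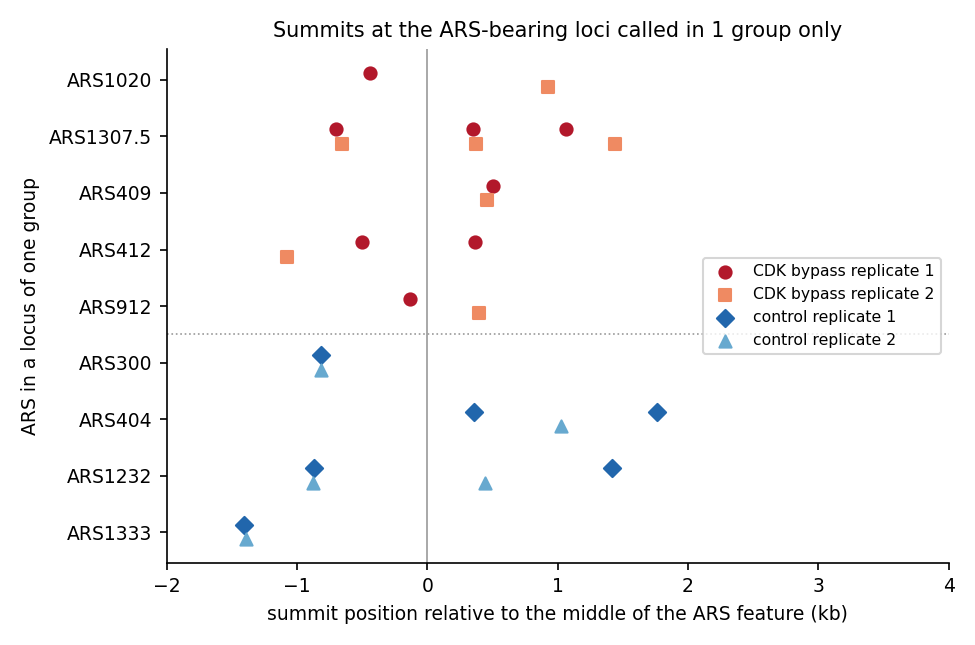
Points show the position of each summit relative to the middle of the ARS feature (x axis, kb) at the 9 ARS-bearing loci called in both lists of 1 group and neither list of the other, CDK bypass loci above the dotted line and control loci below it. The highest summits of the replicates lie at most 40 bp apart at ARS1307.5, ARS409, ARS300 and ARS1333. They lie 1438 bp apart at ARS412, 1363 bp at ARS1020, 1307 bp at ARS1232, 668 bp at ARS404 and 525 bp at ARS912.

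By ARS features rather than loci, 158 of the 352 ARS elements had a summit within 2.5 kb in all 4 lists (44.9%) and 150 had none. In both CDK bypass lists and no control list 13 had a summit (3.69%), and in both control lists and no CDK bypass list 8 had (2.27%). Of the 13, ARS201, ARS523, ARS600, ARS801 and ARS824 lie near chromosome ends at which control lists had summits 3867 to 6669 bp away, so that the locus itself was called in both groups. The CDK bypass summits beside these 5 elements had mid-range percentiles of 44.7 to 55.5. The others were ARS304, ARS421 and ARS608 beside the 5 elements described above. The 8 of control were ARS300, ARS404, ARS1232 and ARS1333, described above, and ARS230, ARS308, ARS429 and ARS1416.

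Lists of known early and late origins, chosen with earlier results known, were read out in full. Of the 8 early origins listed, 7 were matched by name in the annotation (ARS305, ARS306, ARS307, ARS309, ARS315, ARS606 and ARS607), and these 7 were called in all 4 lists, at percentiles of 80.6 to 99.5 in CDK bypass and 73.3 to 100 in control. The remaining early origin was not found under its listed name, and other names were not searched. Of 11 late or dormant origins, 10 had no summit within 2.5 kb in any of the 4 lists. The exception was ARS608 (chr6:216357-216704), which overlaps the condensin gene SMC2, a dormant origin in unperturbed cells. Its nearest summits lay 1185 and 572 bp away in CDK bypass, at percentiles 42.1 and 43.9, while those of control were 11363 and 17887 bp away. Neither CDK/DDK bypass list had a summit within 2.5 kb of it.

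Near chromosome ends, CDK bypass lists had more summits in repeats, whereas the loci called in a single group there were those of control. Within 30 kb of an end lay 42 and 44 summits in CDK bypass (10.9% and 10.3%) and 28 and 30 in control (8.81% and 7.65%). The lists did not overlap, with a difference of 2.35 percentage points (p = 0.333, exact permutation test, adjusted p = 0.667), which turned to -0.28 points when summits within 5 kb of a higher one were dropped. The annotated telomere features, which hold subtelomeric repeats, contained 34 and 34 summits in CDK bypass and 23 and 22 in control. Of the 27 loci near ends, 23 were called in all 4 lists and 4 in control only. At the right end of chromosome 5, CDK bypass lists had 3 and 5 summits and control lists 1 and 1. Without the summits in Ty elements, LTRs and telomere features, the mean share near ends was 1.78% in CDK bypass and 1.82% in control, a difference of -0.036 points with overlapping lists. Reads of such repeats can be placed at several ends.

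Within the 191 loci called in all 4 lists, CDK bypass lists had 1.93 and 2.15 summits per locus and control lists 1.58 and 1.96, a difference of 0.27 with overlapping lists (p = 0.667, exact permutation test). The difference was 0.061 with lists of equal length and 0.017 with windows of 1 kb. It was 0.081 without control replicate 1, 0.15 without CDK bypass replicate 2 and 0.46 without control replicate 2. At 28 of these loci (14.7%) both CDK bypass lists had more summits than both control lists, and at 5 (2.62%) both had fewer. The distance from the lowest to the highest summit of a locus averaged 3.90 and 3.81 kb in CDK bypass and 3.01 and 3.11 kb in control, without overlap between the groups. Its median was 0 kb in every list. By locus, this distance was longer in both CDK bypass lists at 26 loci (13.6%) and shorter in both at 13 (6.81%). It was not recomputed with lists of equal length.

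Among the loci whose lists did not overlap, the largest gain, of 3.5 summits on average, was shared by the locus of ARS208 and ARS209 on chromosome 2 and the ribosomal DNA locus. ARS208 and ARS209 had 8 and 8 summits in CDK bypass and 4 and 5 in control. The ribosomal DNA locus had 7 and 9 summits in CDK bypass and 4 and 5 in control, at highest percentiles of 100 and 100 in CDK bypass and 100 and 78.8 in control. The locus of ARS721, ARS722 and ARS723 had 5 and 8 in CDK bypass and 4 and 3 in control. At ARS518 and ARS519 CDK bypass lists had 5 and 5 summits and control lists 3 and 3. The largest loss among such loci was at ARS1407 and ARS1409 on chromosome 14, with 1 and 1 summits in CDK bypass and 3 and 3 in control. The summit of CDK bypass replicate 2 and some of those of both control lists lay in a Ty element of this locus. ARS1529 had 2 and 2 summits in CDK bypass and 3 and 4 in control.

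The groups differed in summits away from ARS elements and were close in those beside them, a division chosen after the values were seen. Outside Ty elements and telomere features, 184 and 189 summits of CDK bypass and 181 and 187 of control lay within 2.5 kb of an ARS. Over 2.5 kb from an ARS lay 88 and 83 summits of CDK bypass and 49 and 57 of control, without overlap. The gap came mainly from distances of 5 to 10 kb, where CDK bypass lists had 39 and 39 summits and control lists 13 and 17, a difference of 24 summits (p = 0.333, exact permutation test, adjusted p = 0.428 over 9 comparisons). Beyond 10 kb the numbers were 30 and 30 in CDK bypass and 27 and 28 in control.

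**Figure D3:**
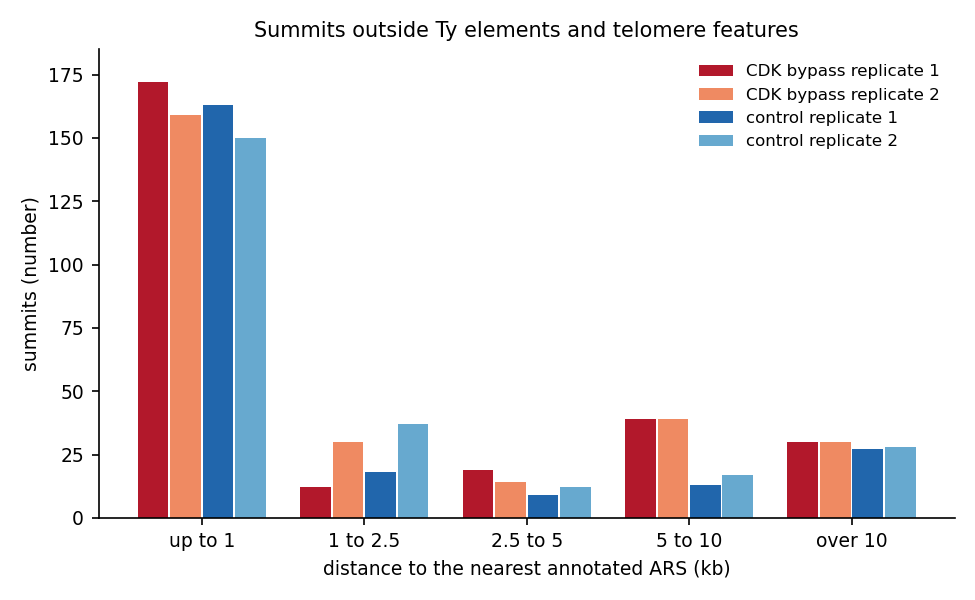
Bars show the number of summits outside Ty elements and telomere features (y axis) by distance to the nearest annotated ARS (x axis, kb), 1 bar per list. The lists are close to each other up to 1 kb and beyond 10 kb and stand apart at 5 to 10 kb, with 39 and 39 summits in CDK bypass and 13 and 17 in control.

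Most flanking summits had low scores. Their median percentile was 19.3 and 21.1 in CDK bypass and 22.5 and 36.1 in control, and the highest reached 73.1 and 76.6 in CDK bypass and 62.3 and 72.7 in control. Where the same ARS also had a summit within 2.5 kb, its highest summit had a median percentile of 95.2 and 96.4 in CDK bypass and 94.0 and 89.3 in control. Of the flanking summits, 35 and 33 of CDK bypass and 8 and 10 of control belonged to an ARS called in all 4 lists, out of 39 and 39 in CDK bypass and 13 and 17 in control. With each list reduced to its 318 best summits, 23 and 15 remained in CDK bypass and 13 and 14 in control. At scores of at least 10, which depend on depth, 5 and 9 remained in CDK bypass and 7 and 11 in control. At this fixed score the CDK bypass lists did not stand above those of control, but the cut is not equal between lists. The median score of all nuclear summits was 24.4 and 23.1 in CDK bypass and 121 and 46.9 in control. With lists of equal length, both CDK bypass lists still held more flanking summits than both control lists, at the closest 15 against 14. The CDK/DDK bypass lists had 27 and 33 flanking summits.

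A flanking summit was present in both CDK bypass lists at 19 ARS elements and in both control lists at 8, and 6 of these had one in all 4 lists. At 9 of the 352 ARS elements (2.56%) both CDK bypass lists and neither control list had a flanking summit, and at 0 both control lists and neither CDK bypass list. The 9 were ARS202, ARS427, ARS727, ARS806, ARS1014, ARS1019, ARS1310, ARS1511 and ARS1200-2 of the ribosomal DNA. At ARS202 the flanking summits lay at 68624 and 68628, in the anaphase-promoting complex gene CDC27. At ARS806 they lay at 110570 and 110598, in TCD1, and at ARS1014 at 424475 and 424800, beside the adenylate cyclase gene CYR1. At ARS1019 a flanking summit fell in IME1, the master regulator of meiosis, at 605639. With 1 flanking summit in each CDK bypass list, the replicates lay 28 bp apart at ARS806, 101 bp apart at ARS427 and 5 bp apart at ARS1200-2, whereas at ARS1310 they lay 12389 bp apart, on opposite sides of the ARS. The flanking summits of ARS1200-2 had percentiles of only 0.517 and 14.5, and their distance to an ARS is that in the reference annotation.

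At 114 of the 191 loci (59.7%) the highest summits of all 4 lists lay within 1 kb, and at 46 (24.1%) within 100 bp. At 17 loci (8.9%) each distance between the groups exceeded both distances within groups, and at 7 of these the groups were over 1 kb apart. The strongest of the 5 with the largest distances was ARS510 (chr5:145678-145840). Its highest summit lay at 147102 and 147107 in CDK bypass, in the sugar-nucleotide transporter gene YEA4, and at 145215 and 144941 in control, on the other side of the ARS in YEA6. The groups were 1887 bp apart and the replicates at most 274 bp, at percentiles of 92.2 and 92.7 in CDK bypass and 91.2 and 94.1 in control.

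ARS1528 (chr15:908296-908544) showed the same arrangement, with the highest summit at 909064 and 909077 in CDK bypass and at 907895 and 907894 in control, 1169 bp apart. At ARS1529 the highest summit lay at 975825 and 975841 in CDK bypass, in a Ty element, and at 982142 and 981965 in control, in the translesion polymerase gene REV1. Each CDK bypass list also had a summit in REV1, so the order of 2 summits differed and not their presence. At 2 loci without an ARS, on chromosomes 12 and 14, the highest summits were 4115 and 2338 bp apart and lay within the same Ty element. At the 129 loci with 1 ARS, the median distance from the highest summit to the ARS was 277 and 515 bp for CDK bypass, against 346 and 539 bp for control. The replicates thus differed more than the groups, and lists of the same replicate number were closer to each other. In both such pairs the CDK bypass value was the smaller.

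Ty elements, the retrotransposons of budding yeast, held a large share of the summits in both groups. The 50 annotated elements cover 2.42% of the nuclear genome. They held 81 and 121 summits in CDK bypass (20.9% and 28.3%) and 65 and 126 in control (20.4% and 32.1%). The replicates of 1 group were thus farther apart than the groups (difference 5.5 summits, p = 1, exact permutation test). At least 1 summit fell in 44 and 47 elements in CDK bypass and in 42 and 45 in control. Within 1 kb of a summit of the other group lay 97.5% and 92.6% of the Ty summits of CDK bypass and 96.9% and 88.9% of those of control.

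Ty1 and Ty2 held most of them. In Ty1 there were 49 and 77 summits in CDK bypass and 28 and 76 in control, and in Ty2 21 and 35 in CDK bypass and 26 and 39 in control. Along these elements the summits were fewest from 2 to 3.5 kb, with 2 and 9 in CDK bypass and 3 and 9 in control. In the first 1 kb lay 25 and 31 in CDK bypass and 16 and 31 in control, and from 1 to 2 kb 7 and 17 in CDK bypass and 3 and 23 in control. From 3.5 to 5 kb there were 14 and 30 in CDK bypass and 12 and 31 in control, and after 5 kb 22 and 25 in CDK bypass and 20 and 21 in control. They reached at most percentile 70.5 and 75.9 in CDK bypass and 56.9 and 69.6 in control. The CDK/DDK bypass lists had 8 and 10 Ty summits (2.42% and 2.63%), so the mean share was 25.5% ± 5.73 in the 4 lists of CDK bypass and control and 2.52% ± 0.152 in the 2 lists of CDK/DDK bypass (p = 0.0667, exact permutation test over 15 assignments, the smallest possible). Copies of a Ty family are nearly identical. The study's methods name standard BWA settings and default MACS2 settings for the peak calls, and restrict only the coverage tracks, not used here, to reads with a unique place.

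**Figure D4:**
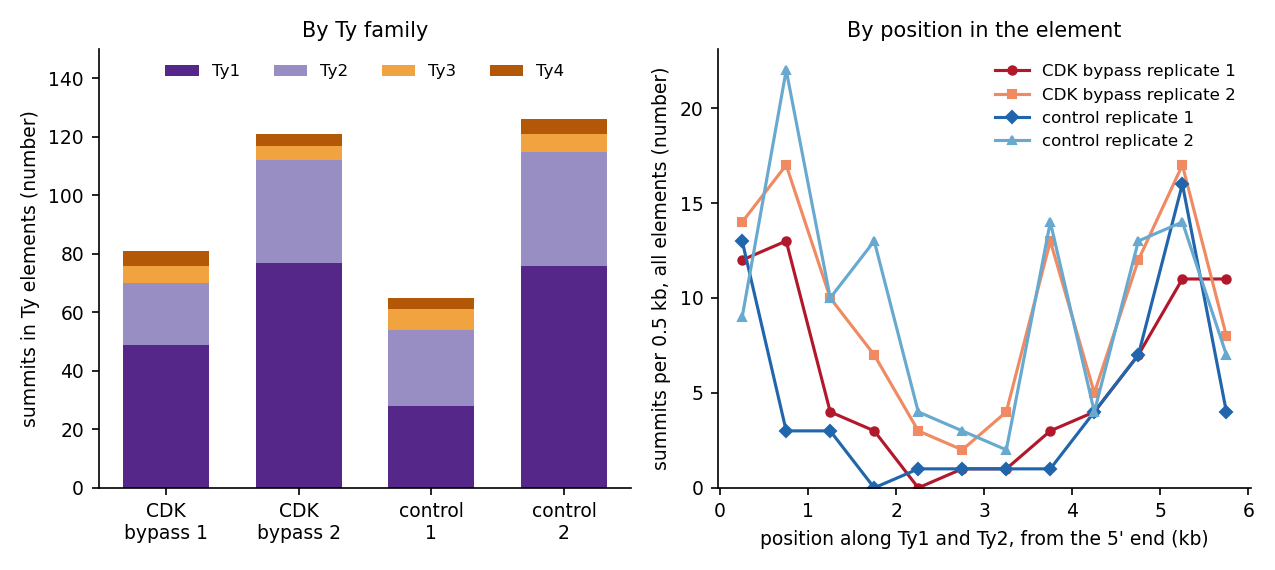
On the left, bars show the number of summits in Ty elements (y axis) in each list by family, and on the right, lines show the summits per 0.5 kb along Ty1 and Ty2 from the 5′ end (x axis, kb). The totals are 81 and 121 in CDK bypass and 65 and 126 in control, and the summits are fewest from 2 to 3.5 kb.

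Without the Ty summits the replicates were closer and the groups no longer overlapped. The lists then held 306 and 306 summits in CDK bypass and 253 and 266 in control, a difference of 46.5 (p = 0.333, exact permutation test). Within 2.5 kb of an ARS lay 63.7% and 65.7% of these in CDK bypass and 73.5% and 71.8% in control. With the Ty summits included the shares were 51.7% and 49.2% in CDK bypass and 59.4% and 51.5% in control, with overlapping lists. The exclusion of Ty elements was chosen after the values were seen.

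The ranks of the loci were nearly the same in both groups. Ranked by the highest score over the 191 common loci, the lists gave Spearman correlations of 0.993 between the CDK bypass replicates, 0.984 between the control replicates and 0.969 to 0.975 between the groups, as a description over loci that share libraries. Of the 20 highest loci of each list, 14 were common to all 4, and of the 50 highest, 45. By rank among these loci, 57 stood nearer the top in both CDK bypass lists and 62 in both control lists. By percentile within the whole list the numbers were 70 (36.6%) and 14 (7.33%). Percentiles depend on all summits of a list, whereas these ranks cover the common loci only, and why the splits differ was not tested.

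The 5 loci with the highest mean percentile held ARS306, ARS737, ARS1019, ARS208 with ARS209, and ARS508. ARS1019 ranked 4 and 2 in CDK bypass and 7 and 14 in control, and ARS208 with ARS209 ranked 3 and 3 in CDK bypass and 13 and 11 in control. ARS737 ranked 9 and 7 in CDK bypass and 5 and 3 in control. The largest gain in percentile was at ARS431 (52.6 and 46.0 in CDK bypass, 17.9 and 11.5 in control), followed by ARS1219 (58.4 and 62.5 in CDK bypass, 23.6 and 37.1 in control). The largest loss was at the locus of ARS1407 and ARS1409 (7.11 and 37.2 in CDK bypass, 43.4 and 47.7 in control), which also lost summits. Its CDK bypass values come from different sites, 12904 bp apart. The summit of replicate 1 lay at 89435, and that of replicate 2 at 102339 in a Ty element. ARS431, ARS1219 and the locus of ARS1407 and ARS1409 stood in the lower part of the ranking, between rank 144 and rank 191.

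**Figure D5:**
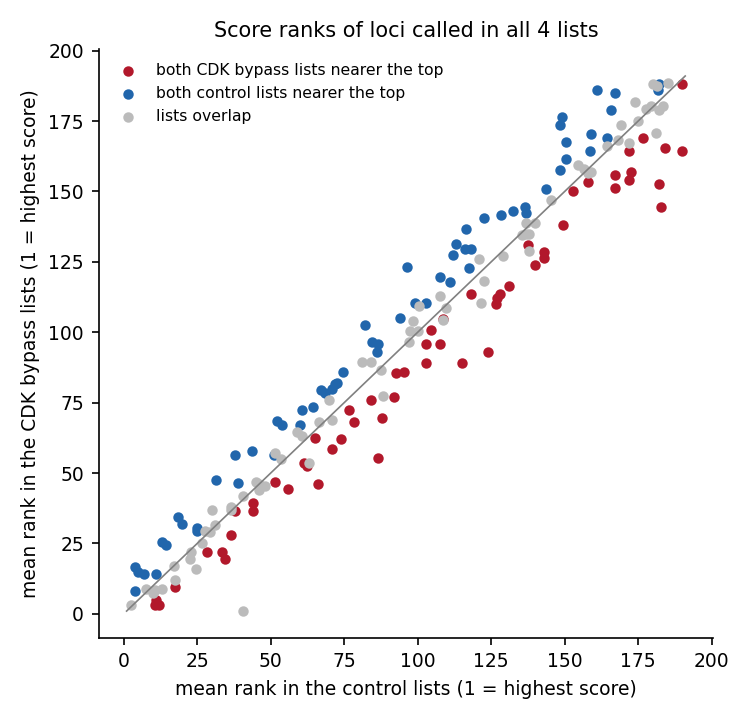
Each point is 1 of the 191 loci called in all 4 lists, placed by its mean rank in the CDK bypass lists (y axis) and in the control lists (x axis), where 1 is the highest score. The points follow the diagonal, with 57 loci nearer the top in both CDK bypass lists and 62 in both control lists.

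By chromosome, both CDK bypass lists had more summits than both control lists on chromosomes 2 and 5 (2 of 16, 12.5%), and no chromosome showed the reverse. Chromosome 2 had 27 and 24 summits in CDK bypass and 19 and 18 in control, and chromosome 5 had 28 and 28 in CDK bypass and 17 and 20 in control. Chromosome 10 had 5 and 8 unmatched summits in CDK bypass and 0 in each control list, whereas chromosomes 1 and 16 had none in any list. The 10 loci that contain a centromere were called in all 4 lists, with median percentiles of 90.6 and 91.3 in CDK bypass and 89.8 and 91.2 in control.

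None of the genes related to the constructs had a summit within 5 kb. The nearest to DPB11 lay 33.7 and 31.5 kb away in CDK bypass and 33.3 and 31.7 kb away in control, and the nearest to SLD2 20.6 and 20.2 kb away in CDK bypass and 20.2 and 20.2 kb away in control. For GAL10, whose promoter drives the constructs, the distance was 6.54 and 7.28 kb in CDK bypass and 9.52 and 9.48 kb in control.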

How the data were processed

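According to the labels and the study's methods, the authors aligned 75-bp paired-end reads to sacCer3 (R64) with BWA 0.7.17 and called peaks with MACS2 2.2.7.1 for each sample against its own total DNA. The deposited lists hold positions and a score, the −log10 of the q-value. The lowest score was 1.31, although a q-value limit of 0.1 was stated. The study's methods give only an approximate read number that holds for every sample. The exact depth per list is unknown, so no counting interval could be given. Summits on the 16 nuclear chromosomes were matched by position, and positions were set against the R64 annotation (RefSeq). Group means over lists were compared by the exact two-sided permutation test over 6 assignments, adjusted by the Benjamini-Hochberg method. Python 3.11.15 with numpy 2.4.6 and pandas 2.3.3 was used, and functions were tested on simulated lists (9 of 9 checks passed). Loci were named by class, rank, summit number, shift of the highest summit and listed origins. The members and lists were chosen with earlier results of these data known. The alternatives were a minimum score of 2, lists of equal length, 1 summit per 5 kb, other windows and distances, no ribosomal DNA and leaving out each sample. Another 216 samples were not used here.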

Additional observations from a re-analysis of the deposited data

How the results depend on the processing

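Of 139 values recomputed under alternatives, 129 kept their sign, of which 94 stayed within 1.5 times of the reported value and 35 moved by more. The 139 include counts and percents of matched summits, which cannot change sign, so the 129 are no measure of stability. Among the differences, 9 values changed sign. Equal list lengths set the difference in summits to 0 by construction, turned that of shifted summits to -1.26 points and left 3 loci called in CDK bypass only. With 1 summit per 5 kb, shifted summits turned to -1.82 and summits near ends to -0.28 points. Windows of 2.5 and 1 kb gave 17 and 29 loci for CDK bypass, and 1 kb gave 11 for control. At 1 kb, 5 ARS features were called in control only. Tolerances of 1 and 5 kb gave matches of 69.8% and 90.4%. Without Ty summits 81.1% matched, and without Ty, LTR and telomeric repeats 81.0%, with shifted summits at -2.24 and summits near ends at -0.036 points. Leaving out each sample gave 6 to 11 loci for CDK bypass and 7 to 9 for control, 9 to 11 ARS features for control, matches of 82.4% to 85.3% and 1.77 to 2.93 points near ends. The difference in summits per list was 15 to 89 (15 without control replicate 1), that in summits per common locus 0.081 to 0.46, that in unmatched summits 2.79 to 8.17 points and that in summits near an ARS -9.00 to -1.10 points, against -0.79 points with equal list lengths. Leaving out each sample gave -7.51 to 12.98 points for shifted summits and -155 to 73 bp for the distance to the ARS, whose sign changed without CDK bypass replicate 1 (73 bp) and without control replicate 2 (55.5 bp). Without CDK bypass replicates 1 and 2, shifted summits were at -4.74 and -7.51 points. The causes were not tested.

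Pairing replicates by number, as a replicate block, gave the same difference of 52 summits (35 and 69 per pair, p = 0.5, exact sign-flip test over 2 pairs) and a match of 84.6%. Deviations of same-numbered lists correlated at 0.242 for ranks and 0.411 for summits per locus over 191 loci, but the labels share a number only. Within 1 kb, same-numbered lists of the groups matched at 71.8% and 74.7%, against 66.5% and 66.2% for lists of unlike number. Ty summits numbered 81 in CDK bypass and 65 in control for replicate 1, and 121 and 126 for replicate 2. Depth per list is unknown, so a summit called in some lists only is no measure of a difference in synthesis.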

Other observations

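Mitochondrial DNA, which replicates outside the control of CDK, was not part of the comparison, which covered nuclear chromosomes only. It held 8 and 4 summits in CDK bypass and 28 and 22 in control. The median score of nuclear summits was 24.4 and 23.1 in CDK bypass and 121 and 46.9 in control, and these values were not compared because depth is unknown.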
